A study of Drosophila melanogaster with 70 samples.

Results

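The genes examined here are the Cpr genes of Drosophila melanogaster, a family of cuticle protein genes that lies partly in tandem clusters. Members are the protein-coding genes on chromosome arms 2L, 2R, 3L, 3R and X whose symbol starts with Cpr followed directly by a digit. That rule found 70 genes among the 13842 protein-coding genes of those arms in the Release 6 (dm6) annotation. Of the 70, 35 lie on 3L, 21 on 2R, 5 each on 2L and 3R, and 4 on X. The rule uses symbols only and no measured value, and it leaves out the gene named Cpr alone, which encodes a cytochrome P450 reductase. It also leaves out cuticle protein genes with other symbols, 27 of which are counted apart below. Whether their proteins are of the same kind was not examined.

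The insect cuticle is a layered coat of chitin fibres and proteins that epidermal cells secrete at their outer face. Cpr proteins carry the Rebers and Riddiford consensus, a stretch that binds chitin, and their genes are named after the band of the polytene chromosome where they lie, with letters for neighbours in the same band. In the embryo, cuticle is laid down late, after organs have formed, so the blastoderm has no cuticle-forming epidermis yet.

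Boundaries between chromatin domains came from in situ Hi-C, which joins stretches of DNA that are neighbours in the nucleus and sequences the joints. The first group is stage 5 embryos (nuclear cycle 14) from mothers carrying mat-a-tubGal4 and mofRNAi, with 2 libraries. MOF is the enzyme that acetylates lysine 16 of histone H4, and here its depletion is maternal. The second is stage 15 embryos (14 to 16 h after egg laying), with 8 libraries, made as 2 each of mof RNAi males, mof RNAi females, control RNAi males and control RNAi females, sorted by an Sxl-GFP marker carried in the background. The third is stage 5 embryos from mothers with mat-a-tubGal4 and controlRNAi, with 3 libraries. Embryos were whole and staged by hand, mothers were crossed to their siblings, and stage 5 embryos were not sexed. In the mof RNAi Hi-C libraries the strain label names controlRNAi mothers beside the mofRNAi stock number, so groups follow the titles.

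Each condition is represented by 1 list of boundaries. The lists hold 2499 boundaries at stage 5 after mof RNAi, 2785 at stage 15 and 2591 at stage 5 in control. Boundaries are called on bins of 2.5 kb, and what lies between one boundary of a list and the next is called a domain. The stage 15 list is named by all 8 libraries of that stage, mof RNAi and control alike, so a difference between it and the stage 5 control list is not one of stage alone. No list gives read counts, so depth is unknown, and with 1 list per condition no difference has a replicate check and no p-value is given.

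A gene was counted as at a boundary when either annotated end lay within 2.5 kb of a boundary's midpoint. By this measure 10 of 70 Cpr genes were at a boundary at stage 5 after mof RNAi (14.3%, 95% Wilson interval 7.95 to 24.3), 13 at stage 15 (18.6%, 11.2 to 29.2) and 12 at stage 5 in control (17.1%, 10.1 to 27.6). Among all protein-coding genes the shares were 29.5%, 34.5% and 31.6%. The median Cpr gene had its nearest boundary 17.3 kb away after mof RNAi, 7.92 kb at stage 15 and 14.2 kb in control, beside 6.83, 5.36 and 6.17 kb over all genes. The nearest boundary was more than 10 kb away for 44, 31 and 41 of the 70 genes in those lists (62.9%, 44.3% and 58.6%), beside 39.5%, 32.8% and 36.4% of all genes. Intervals cover counting error only, and they treat genes as independent although neighbours share boundaries.

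Clustered and other members were also counted apart. Of the 45 genes in clusters, 3 were at a boundary after mof RNAi, 5 at stage 15 and 5 in control (6.67%, 11.1% and 11.1%). Of the 25 genes outside clusters, 7, 8 and 7 were (28%, 32% and 28%), shares close to those of all genes. The median distances were 17.7, 7.78 and 15.1 kb for the clustered genes and 13.0, 8.05 and 9.92 kb for the others, longer in both than over all genes. When each cluster was counted once by its outer ends, 10, 10 and 11 of 35 loci were at a boundary (28.6%, 28.6% and 31.4%), near the background, with median distances of 8.37, 7.20 and 8.37 kb. That background is of single genes, whereas a cluster spans up to 38.5 kb. Boundaries inside a cluster count only near its outer ends. At stage 15 the Cpr62B cluster was thus scored at 8.37 kb, although a boundary lay inside it. The Wilson intervals of clustered and other genes overlap in every list, and the difference between them was not tested.

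**Figure D1:**
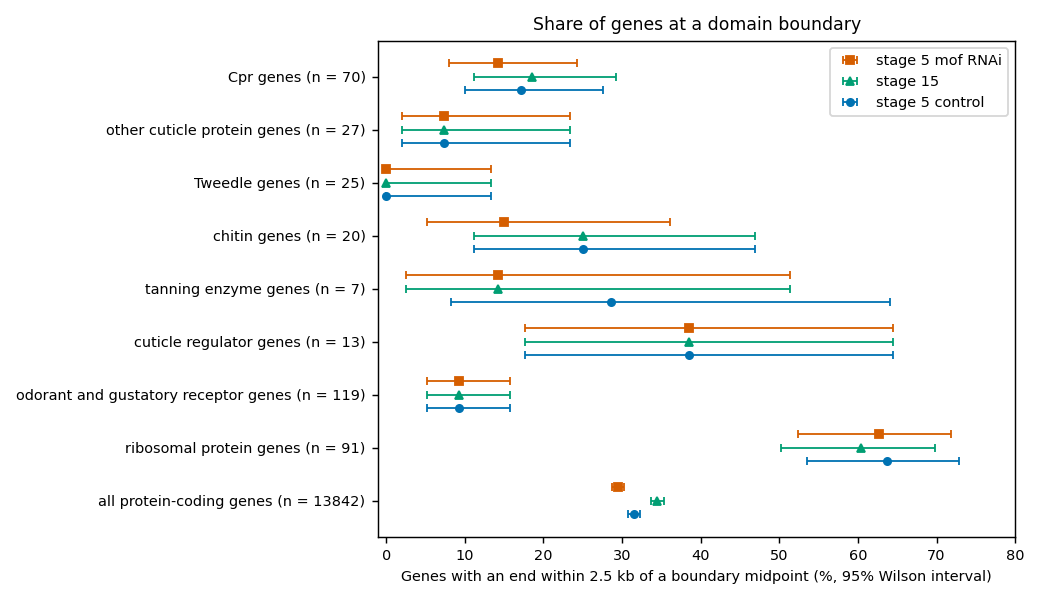
Share of genes with an end within 2.5 kb of a boundary midpoint (percent, points with 95% Wilson intervals) for the Cpr genes, other gene lists and all protein-coding genes, in the stage 5 mof RNAi (squares), stage 15 (triangles) and stage 5 control (circles) lists. The Cpr genes sit at 14.3%, 18.6% and 17.1%, left of all protein-coding genes at 29.5%, 34.5% and 31.6%.

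In 7 genes an end was within 2.5 kb of a boundary in all 3 lists, 10% of the family, beside 21.0% of all genes. They were Cpr31A on 2L, Cpr47Eg on 2R, Cpr65Ec, Cpr66Cb, Cpr67B and Cpr73D on 3L, and Cpr100A on 3R. Cpr73D (3L 16939100 to 16957689), a long gene for this family at 18590 bp, had a boundary 0.189 kb inside one end in all 3 lists, at 3L 16956251 to 16958750. Counted from the most negative score, that boundary's score stood at the 90.4th percentile of the mof RNAi list. It stood at the 25.5th of the stage 15 list and the 88.0th of the control list. This score comes from the authors' lists, its scale is not known, and it is read only within a list. Cpr100A (3R 30867521 to 30869184) stood 0.816 kb from the same boundary in each list, and Cpr66Cb (3L 8336672 to 8338595) 1.41 kb.

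Cpr31A (2L 10054213 to 10055935) held a boundary inside the gene at stage 15 and in control, and after mof RNAi the boundary lay 1 bin to the right, 1.57 kb from the gene. Cpr47Eg was 1.56 kb from the boundary at 2R 11278751 to 11281250 in all 3 lists, as the last gene of its cluster. At the other extreme, Cpr49Ad was 45.8 kb from any boundary in each list, and Cpr49Ac 41.7 kb. Cpr64Ac was 42.0 kb away after mof RNAi, 7.09 kb at stage 15 and 24.5 kb in control. In 51 of the 70 genes no list had a boundary within the window, 72.9%, beside 55.9% of all genes.

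Genes just inside the window were Cpr67Fa1, at 2.49 kb in both stage 5 lists, and Cpr57A, at 2.38 kb at stage 15. So were Cpr67B, at 2.30 kb in all 3 lists, Cpr5C, at 2.18 kb at stage 15, and Cpr76Bb, at 2.15 kb in control. Just outside were Cpr76Ba, at 2.55 kb after mof RNAi and at stage 15, and at stage 15 also Cpr60D at 2.68 kb, Cpr67Fb at 2.81 kb and Cpr30B at 2.88 kb. A boundary cannot be placed more finely than its bin of 2.5 kb, so these memberships turn on 1 bin or less.

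**Figure D2:**
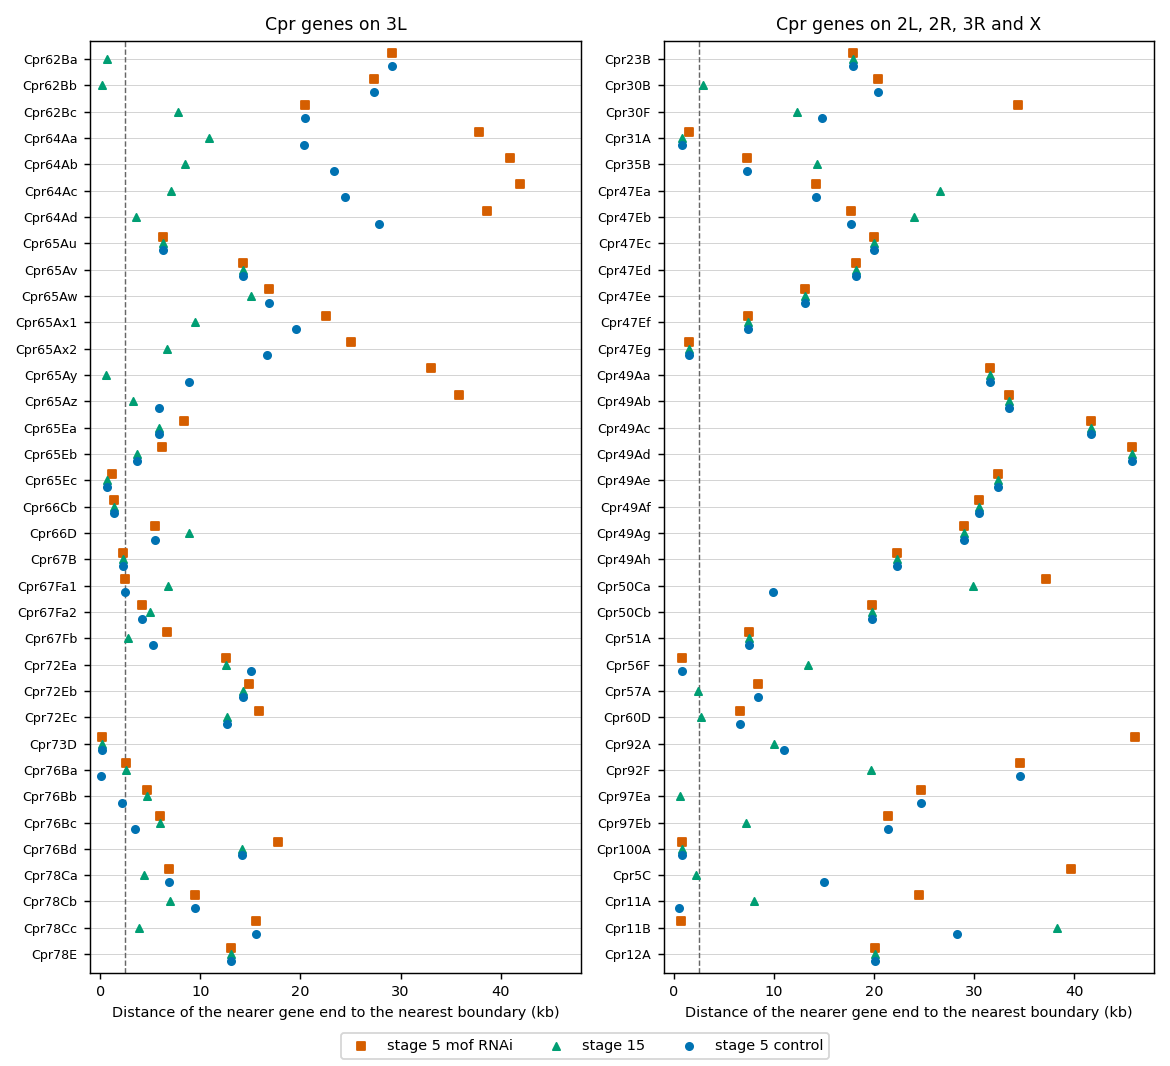
Distance in kb from the nearer end of each of the 70 Cpr genes to the nearest boundary midpoint, with genes on 3L on the left and those on the other arms on the right, each in chromosome order. Squares are stage 5 mof RNAi, triangles stage 15 and circles stage 5 control, and the dashed line marks 2.5 kb. The Cpr49A genes lie between 22.3 and 45.8 kb in all 3 lists, while the Cpr62B and Cpr64A genes are nearer to a boundary at stage 15 than in either stage 5 list.

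A cluster was taken as 3 or more Cpr genes with at most 20 kb between one and the next. There were 10, of 3 to 8 genes each, 8 on 3L and 2 on 2R, spanning 4.70 to 38.5 kb. All 10 lay in 1 domain at stage 5 after mof RNAi, 7 at stage 15 and 9 at stage 5 in control. A cluster counted as divided when a boundary midpoint lay between the midpoints of its first and last gene. Clusters of odorant and gustatory receptor genes, another set of tandem families, were cut by the same rule for comparison, and all 10 of those lay in 1 domain in each list. They are not matched to the Cpr clusters in span or gene number, with 37 genes beside 45. The stretch between their enclosing boundaries had medians of 71.25, 88.75 and 55 kb in the lists, beside 83.75, 50 and 43.75 kb for Cpr clusters. For the 10 Cpr clusters, the 95% Wilson intervals ran from 72.2 to 100% after mof RNAi, from 39.7 to 89.2% at stage 15 and from 59.6 to 98.2% in control. The same clusters are scored in each list, so these intervals do not compare the lists. Cpr62B and Cpr65A were divided at stage 15 alone, and Cpr65E at stage 15 and in control. With only the 50% of boundaries that have the most negative scores, 10, 9 and 10 clusters lay in 1 domain.

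The largest cluster, Cpr49A on 2R, held 8 genes from Cpr49Aa to Cpr49Ah (12376626 to 12415170), with 7 other genes between them, the odorant receptor gene Or49a among these. In all 3 lists its domain was the same 92.5 kb, between the boundaries at 12343751 to 12346250 and 12436251 to 12438750. The left one falls at an end of ana3 and the right one at an end of Dyb, 0.017 and 0.155 kb from them. The domain held 24 protein-coding genes besides the 8 Cpr genes.

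The Cpr47E cluster on 2R (11251751 to 11278445) held 7 genes, Cpr47Ea to Cpr47Eg, with the troponin C gene TpnC47D and CG13223 between them. Its right boundary, in Vhl, was the same in all 3 lists, 1.56 kb past the cluster. On the left, the domain began at 11236251 to 11238750 in both stage 5 lists, and the stage 15 list lacked that boundary. The domain was therefore 42.5 kb after mof RNAi, 60 kb at stage 15 and 42.5 kb in control.

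The Cpr65A cluster on 3L (6131242 to 6161589) is a mixed array. Between its 7 Cpr genes, Cpr65Au to Cpr65Az, lie 9 Lcp65A larval cuticle protein genes, the adult cuticle protein gene Acp65Aa and CG13297. After mof RNAi it was enclosed by a domain of 140 kb with 41 protein-coding genes. At stage 15 it was divided, and in control it lay in a domain of 42.5 kb with 21 protein-coding genes. The left boundary, in l(3)mbn at 6123751 to 6126250, was in all 3 lists. The right boundary differed in each, in control at 6166251 to 6168750 in fmt and after mof RNAi at 6263751 to 6266250. The mof RNAi domain held 3 bins left out by the authors' map, the control domain 0.

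At stage 15 a boundary at 3L 6156251 to 6158750 set Cpr65Ay and Cpr65Az apart from the other 5 Cpr65A genes and from the Lcp65A genes. Cpr65Ay was 0.575 kb from it, Cpr65Az 3.31 kb and Cpr65Ax2 6.64 kb. The same genes had their nearest boundary 33.1, 35.8 and 25.1 kb away after mof RNAi, and 8.87, 5.91 and 16.6 kb away in control. The score of the stage 15 boundary stood at the 63.6th percentile of its list, counted from the most negative score.

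The Cpr62B cluster (3L 1824129 to 1842084) was also divided at stage 15 and whole at stage 5. Both stage 5 lists gave the same domain of 67.5 kb, from alpha-Spec to Rap1. The stage 15 list had a boundary at 1831251 to 1833750, between Cpr62Ba and Cpr62Bb, 0.717 kb from the first and 0.136 kb from the second. Its score stood at the 82.9th percentile of its list, where a low percentile is a more negative score. The nearest stage 5 boundary was 30 kb away in both lists.

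The Cpr65E cluster (3L 7086003 to 7093841), with Cpr65Ea, Cpr65Eb and Cpr65Ec, turned on 1 bin. At stage 15 and in control a boundary at 7091251 to 7093750 fell between Cpr65Eb and Cpr65Ec, and after mof RNAi the boundary was called at 7093751 to 7096250, past Cpr65Ec and in the gene form3. The cluster thus counted as whole after mof RNAi and as divided in the other lists by a shift of 2.5 kb. The score of the dividing boundary stood at the 42.1st percentile of the stage 15 list and the 64.0th of the control list. The stretch around the cluster held 1 left-out bin after mof RNAi and 2 in control. To the right the stage 15 list had its next boundary in msl-3, the gene of a subunit of the dosage compensation complex, at 7123751 to 7126250.

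**Figure D3:**
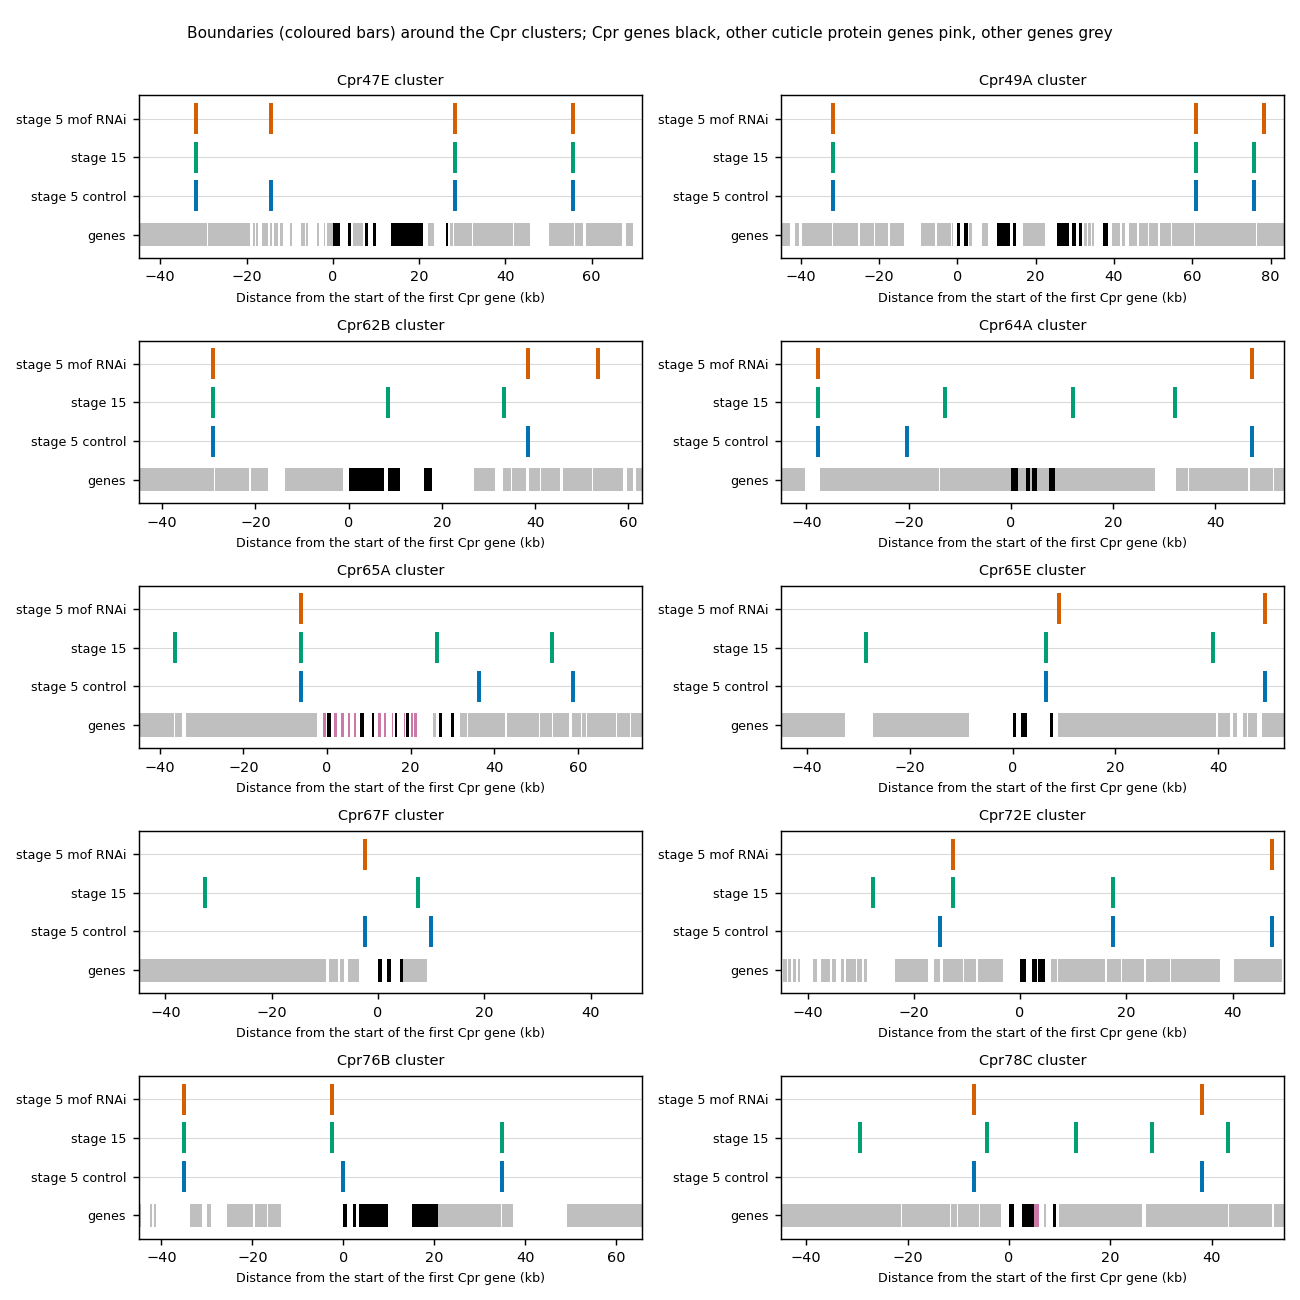
Maps of the 10 Cpr clusters, with distance in kb from the start of the first Cpr gene on the x axis. In each panel the rows show, from top to bottom, boundary midpoints of the stage 5 mof RNAi, stage 15 and stage 5 control lists as coloured bars and the genes, with Cpr genes in black, other cuticle protein genes in pink and other protein-coding genes in grey. Bars fall between the first and last black block in the Cpr62B and Cpr65A panels at stage 15 and in the Cpr65E panel at stage 15 and in control.

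The Cpr64A cluster (3L 4207838 to 4216414) lies wholly inside another gene, CG43367 (4193993 to 4224003). At stage 15 both boundaries that enclosed Cpr64Aa, Cpr64Ab, Cpr64Ac and Cpr64Ad also had their midpoints inside CG43367, 25 kb apart, at 4193751 to 4196250 and 4218751 to 4221250. The left midpoint was 1.01 kb from an end of CG43367, and its bin begins before the gene does. At stage 5 neither boundary was called, and the enclosing domain was 85 kb after mof RNAi and 67.5 kb in control. Of the 70 Cpr genes, 5 lay inside another protein-coding gene (7.14%, beside 11.4% of all genes), these 4 and Cpr11B in hwt.

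The other clusters lay in 1 domain in all 3 lists. The domain around Cpr67F (Cpr67Fa1, Cpr67Fa2 and Cpr67Fb, 3L 10889990 to 10894693) measured 107.5 kb after mof RNAi, 40 kb at stage 15 and 12.5 kb in control, with 2, 6 and 1 other protein-coding genes in it. For Cpr72E (3L 16362603 to 16367340) the lengths were 60, 30 and 32.5 kb, for Cpr76B (3L 19517552 to 19538289) 82.5, 37.5 and 35 kb, and for Cpr78C (3L 21291860 to 21301171) 45, 17.5 and 45 kb. The Cpr78C domain held 3 left-out bins in both stage 5 lists. Among the genes around Cpr78C is Edg78E, another cuticle protein gene, which lay in the same domain in each list. Cpr50Ca with Cpr50Cb, and Cpr97Ea with Cpr97Eb, are too few to count as clusters. Each of these couples also shared 1 domain in every list, of 232.5, 85 and 65 kb for Cpr50C and of 80, 30 and 57.5 kb for Cpr97E.

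**Figure D4:**
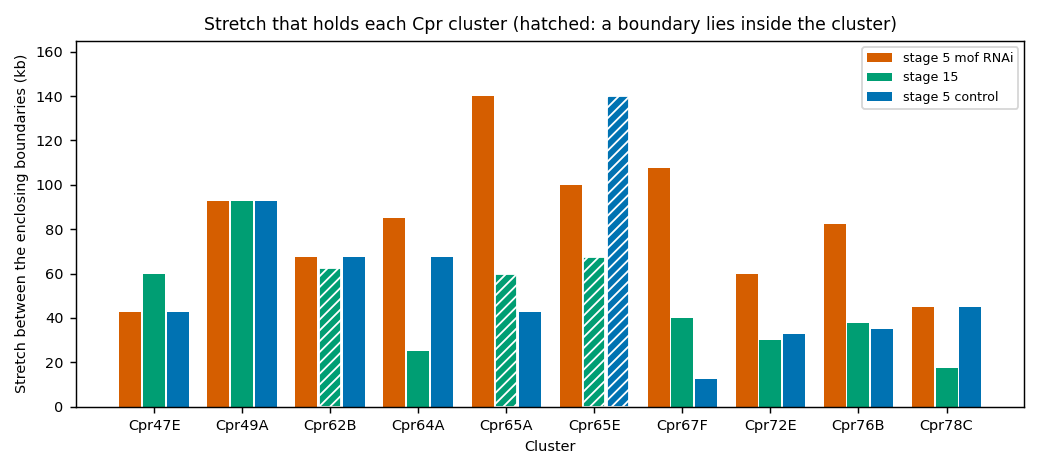
Length in kb of the stretch between the boundaries that enclose each of the 10 Cpr clusters, as bars from 0 for stage 5 mof RNAi, stage 15 and stage 5 control. Hatched bars mark clusters with a boundary inside them, where the stretch holds more than 1 domain. The bar is longer after mof RNAi than in control for Cpr64A, Cpr65A, Cpr67F, Cpr72E and Cpr76B, shorter for Cpr65E, and the same for Cpr47E, Cpr49A, Cpr62B and Cpr78C.

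The first comparison set stage 5 after maternal mof RNAi beside stage 5 control. After mof RNAi 1 Cpr gene had a boundary that it lacked in control, Cpr11B on X (1.43% of 70, beside 3.06% of all genes). The opposite held for Cpr76Ba, Cpr76Bb and Cpr11A, with a boundary in the control list alone (4.29%, beside 5.09%). Both lists put the other 9 of the 12 control genes at a boundary (12.9% of 70, beside 26.5% of all genes). Those 9 make 75% of the 12 (46.8 to 91.1), and among all genes at control boundaries the share was 83.9%.

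At Cpr76Ba and Cpr76Bb the boundaries of the lists were 1 bin apart, and the distances were 2.55 and 4.65 kb after mof RNAi and 0.052 and 2.15 kb in control. At Cpr11A (X 12486970 to 12489448) the control boundary at 12488751 to 12491250 had its nearest mof RNAi boundary 27.5 kb away, and the gene stood 24.5 kb from a boundary after mof RNAi and 0.552 kb in control. Its score in the control list was positive, at the 82.4th percentile. At Cpr11B (X 12553124 to 12554235) a boundary at 12553751 to 12556250 was called after mof RNAi, 0.765 kb from the gene, and the gene was 28.3 kb from a boundary in control and 38.3 kb at stage 15. Cpr11A and Cpr11B thus lay in the same domain of 92.5 kb after mof RNAi, and in control in neighbouring domains of 27.5 and 92.5 kb.

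Where distances differed, most Cpr genes were farther from a boundary after mof RNAi. The nearest boundary was farther in 24 of 70 (34.3%, 24.2 to 46.0), nearer in 2 (2.86%, 0.787 to 9.83) and equally far in 44 (62.9%), beside 18.2% farther, 12.9% nearer and 68.9% equally far among all genes. The nearer ones were Cpr11B and, by 1 bin, Cpr72Ea. Differences over 10 kb went to 11 farther and 1 nearer (15.7% and 1.43%), beside backgrounds of 8.9% and 5.64%. By arm the farther genes were 18 of 35 on 3L (51.4%, beside 19.0% of all genes on that arm), 2 of 4 on X (50%, beside 22.9%), 2 of 5 on 2L (40%, beside 16.6%), 1 of 5 on 3R (20%, beside 17.2%) and 1 of 21 on 2R (4.76%, beside 16.5%). All 18 on 3L belong to clusters, so they share boundaries. When clusters were counted once by their outer ends, 9 of 35 loci were farther (25.7%), 3 nearer (8.57%) and 23 equally far (65.7%). Those shares are nearer to the 18.2%, 12.9% and 68.9% of all single genes than the shares counted by gene.

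Of the 20 boundaries that enclose the 10 clusters in control, 15 had a partner within 2.5 kb after mof RNAi (75%), beside 78.7% of all 2591 control boundaries. The other 5 were the left one of Cpr64A and the right ones of Cpr65A, Cpr67F, Cpr72E and Cpr76B. In the opposite direction, all 20 enclosing boundaries of the mof RNAi list had a control partner, beside 81.6% of that list.

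The right boundary of Cpr76B, at the gene CG9300 (3L 19551251 to 19553750), scored low in control (8.26th percentile of the list), and the nearest mof RNAi boundary was 37.5 kb away. It was called at stage 15 in the same bin. The right boundary of Cpr72E, in Agpat4 (3L 16378751 to 16381250), was likewise called at stage 15 in the same bin, with a control score at the 25.8th percentile, and was 30 kb from a mof RNAi boundary. That of Cpr67F (3L 10898751 to 10901250), just past Aps, had its stage 15 partner 1 bin away and no mof RNAi boundary within 10 kb. By the bin numbers in the boundary names, the mof RNAi domains around Cpr64A, Cpr67F, Cpr72E and Cpr76B had 0 left-out bins. Around Cpr65A, as above, 3 bins were left out, and their part in the missing boundary was not tested.

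Single genes on other arms also differed. Cpr92A (3R 19597502 to 19598955) was 46.0 kb from a boundary after mof RNAi and 11.0 kb in control, and Cpr5C on X 39.7 and 15.0 kb. Cpr30F on 2L stood at 34.3 kb after mof RNAi and 14.8 kb in control, and Cpr50Ca on 2R at 37.2 and 9.92 kb. The control boundaries next to Cpr92A, Cpr5C and Cpr50Ca had scores at the 75.7th, 93.8th and 94.4th percentiles of the control list, and that next to Cpr30F at the 51.7th.

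The second comparison set stage 15 beside stage 5 control. At a boundary at stage 15 and not in control were Cpr57A, Cpr62Ba, Cpr62Bb, Cpr65Ay, Cpr97Ea and Cpr5C (6 of 70, 8.57%, beside 10.7% of all genes). At a boundary in control and not at stage 15 were Cpr56F, Cpr67Fa1, Cpr76Ba, Cpr76Bb and Cpr11A (5 of 70, 7.14%, beside 7.74%). At a boundary in both were 7 (10%, beside 23.8%). Of the 12 genes at a control boundary those 7 are 58.3% (32.0 to 80.7), and among all genes the share was 75.5%. The first 2 shares are close to the background, and the interval of the last one includes that of all genes.

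Some of these genes had no boundary near in the other list. Cpr97Ea (3R 27083130 to 27087778) was 0.630 kb from the stage 15 boundary at 27081251 to 27083750 and 24.7 kb from a boundary in control. Cpr5C (X 5804677 to 5805344) stood at 2.18 kb at stage 15 and 15.0 kb in control. Cpr56F (2R 20288371 to 20291945) stood 13.4 kb from a boundary at stage 15 and 0.871 kb in control, the same as after mof RNAi. At Cpr76Ba and Cpr76Bb the stage 15 boundary was the one called after mof RNAi, 1 bin from that of control.

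The nearest boundary was nearer at stage 15 than in control for 26 Cpr genes (37.1%, 26.8 to 48.9), farther for 13 (18.6%, 11.2 to 29.2) and equally far for 31 (44.3%), beside 31.3% nearer, 22.9% farther and 45.7% equally far among all genes. Differences over 10 kb went to 12 nearer and 3 farther (17.1% and 4.29%), beside 13.1% and 9.34% of all genes. The 12 nearer ones include the 3 Cpr62B genes, Cpr64Ab, Cpr64Ac and Cpr64Ad, both Cpr97E genes, Cpr78Cc, Cpr30B, Cpr92F and Cpr5C. Cpr92F was 19.7 kb from a boundary at stage 15 and 34.6 kb in control, and Cpr30B 2.88 and 20.4 kb. The 3 farther ones were Cpr47Ea, Cpr50Ca and Cpr56F. Counted by locus, 14 of 35 were nearer (40%), 8 farther (22.9%) and 13 equally far (37.1%). Among all single genes those shares were 31.3%, 22.9% and 45.7%.

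Around the clusters, 12 of the 20 control enclosing boundaries had a stage 15 partner within 2.5 kb (60%), close to the 61.7% of all control boundaries. Cpr49A, Cpr72E and Cpr76B kept both ends within 1 bin, and the other 7 clusters did not. Enclosing boundaries with a gene end within 2.5 kb numbered 17 of 20 after mof RNAi (85%, beside 73.7% of that list), 17 of 20 at stage 15 (85%, beside 76.4%) and 18 of 20 in control (90%, beside 76.1%).

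Of neighbouring Cpr genes with no other protein-coding gene between them there were 25 couples, a median of 2.85 kb apart by their midpoints. A boundary lay between 0 of them after mof RNAi (upper Wilson limit 13.3%), 2 at stage 15 (8%, 2.22 to 25.0) and 1 in control (4%, 0.710 to 19.5). Among all 13837 neighbouring couples of protein-coding genes the shares were 16.5%, 18.3% and 17.0%, but those were a median of 3.85 kb apart. At the shares of all couples in the same classes of distance, 2.70, 3.14 and 2.87 of the 25 would be separated. The separated couples were Cpr62Ba with Cpr62Bb and Cpr65Eb with Cpr65Ec at stage 15, and Cpr65Eb with Cpr65Ec in control. The stage 15 boundary at Cpr65Ay has CG13297, which is not a Cpr gene by symbol, on its other side and so is not among them. None of the 21 couples up to 5 kb apart was separated in any list, where the shares of all couples in the same classes would give 1.81, 2.17 and 1.95 of 21, so these counts are near the background.

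**Figure D5:**
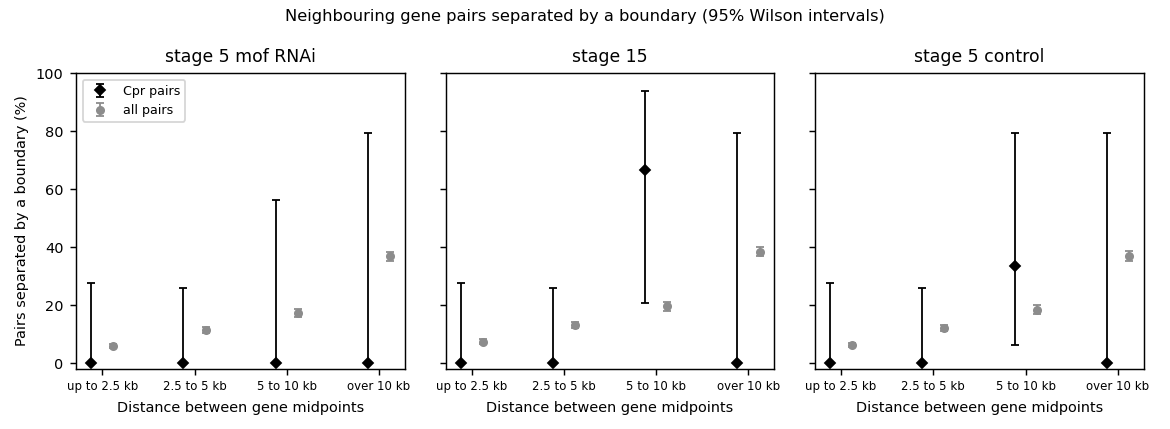
Share of neighbouring gene couples with a boundary between their midpoints (percent, 95% Wilson intervals) by the distance between midpoints, for couples of Cpr genes (black diamonds) and all protein-coding genes (grey circles), in the stage 5 mof RNAi, stage 15 and stage 5 control lists. Cpr couples stand at 0 in every class after mof RNAi, and above 0 in the class of 5 to 10 kb alone in the other lists, where 3 Cpr couples fall.

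Cpr genes were also counted by domain. The 70 genes were spread over 32 domains after mof RNAi, 36 at stage 15 and 34 in control, and domains with more than 1 Cpr gene held 51, 47 and 48 of them. By definition the 45 genes in clusters lie close together, and no such count was made for other genes of like spacing. The domain around the median Cpr gene was 82.5 kb long after mof RNAi, 37.5 kb at stage 15 and 45 kb in control, beside 52.5, 42.5 and 47.5 kb around the median protein-coding gene. It held 16, 9 and 11.5 protein-coding genes, beside 9, 8 and 8. These medians count a domain once for each gene in it. Counted once each, domains with Cpr genes had median lengths of 75, 36.25 and 48.1 kb, beside 40, 35 and 38.6 kb over all domains of the lists. In the stage 5 lists, 22 Cpr genes after mof RNAi and 10 in control lay in domains with left-out bins (31.4% and 14.3%, beside 36.9% and 35.3% of all genes). The stage 15 names number all bins, so left-out bins cannot be read from that list.

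Boundaries at Cpr genes had scores near the middle of their lists. The distinct boundaries nearest to the genes counted as at a boundary numbered 10, 12 and 11 in the lists, with median score percentiles of 52.7, 61.5 and 55.2. Negative scores were given to 9 of 10, 10 of 12 and 9 of 11, beside 76.6%, 87.0% and 77.0% of each whole list.

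Other genes of the cuticle were counted in the same way, beside 29.5%, 34.5% and 31.6% of all protein-coding genes at a boundary. Cuticle protein genes with other names (the Lcp, Ccp84, Acp65, Pcp, Edg78, Edg84 and Crys symbols) stood at a boundary in 2 of 27 in each list (7.41%, 2.06 to 23.4). These were Crys, at 0.369 kb, and Edg84A, at 1.95 kb. The 27 genes have a median length of 713 bp and lay in only 7 domains in each list. Their interval includes the 17.5%, 20.1% and 18.7% of all genes of up to 1 kb. Tweedle genes, which encode a separate family of cuticle proteins, stood at a boundary in 0 of 25 in each list (upper Wilson limit 13.3%). Their median distance was 85.4 kb after mof RNAi, 22.2 kb at stage 15 and 24.0 kb in control, and 12 of the 25 lie in 1 array on 3R (26619118 to 26641054). Those 12 stood 85.4 to 106.3 kb from a boundary after mof RNAi, 56.4 to 77.3 kb at stage 15 and 18.9 to 31.3 kb in control, and the other 13 had medians of 16.7, 11.7 and 13.2 kb. Of 20 genes for making and modifying chitin, 3 were at a boundary after mof RNAi, 5 at stage 15 and 5 in control (15%, 25% and 25%). The Wilson intervals of these shares include the shares of all genes. In all 3 lists these genes included rtv, which organises chitin fibres, at 1.01 kb and the chitinase gene Cht7 at 1.52 kb. Another in all 3 lists was kkv, at 0.366 kb after mof RNAi, 2.13 kb at stage 15 and 2.13 kb in control.

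Of 7 genes of tanning, the process that hardens and darkens cuticle, 1, 1 and 2 were at a boundary (14.3%, 14.3% and 28.6%). The laccase gene stw stood at 1.24 kb after mof RNAi, 16.3 kb at stage 15 and 1.24 kb in control. Of 13 regulators of cuticle and moulting, 5 were at a boundary in each list (38.5%). For tanning genes and regulators alike, the Wilson intervals include the shares of all genes. The gene usp, which encodes the partner of the ecdysone receptor, stood at 0.189 kb in all 3 lists. The epidermal regulator grh was 1.37 kb from a boundary after mof RNAi, 7.18 kb at stage 15 and 1.37 kb in control. Odorant and gustatory receptor genes, which like Cpr genes are short and partly clustered, were at a boundary in 11 of 119 in each list (9.24%). Over all genes the shares were 29.5%, 34.5% and 31.6%. Ribosomal protein genes stood at the other extreme, with 57, 55 and 58 of 91 (62.6%, 60.4% and 63.7%).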

How the data were processed

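The authors deposited lists of boundaries as intervals with a score per boundary. They are on dm6, per the submitters' processing notes, with bins of 2.5 kb, per the names of the deposited lists. No source used here names the aligner, the boundary caller or its filters. A further stage 5 list held the same lines as that of control and was left out. The other 57 of 70 samples were not analysed here. The start and end of each interval, deposited by the authors as base positions (another unit than the score), gave its midpoint. Genes came from a RefSeq table of Release 6, which holds no strand, so distances run to the nearer annotated end. Sequences were not used here.

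Counts, medians and 95% Wilson intervals were computed with Python 3.11.15, pandas 2.3.3, numpy 2.4.6 and scipy 1.17.1, and the distance and cluster functions were tested on simulated data. The family, the gene lists and the comparisons were chosen with earlier results of these data known. Named are all clusters, genes whose status differed between lists, the 3 nearest and 3 farthest genes per list, and separated couples. Other genes were named after their values were seen.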

Additional observations from a re-analysis of the deposited data

How the results depend on the processing

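No paired analysis was possible because each condition has 1 pooled list, and for the same reason no replicate could be left out. Of 54 values recomputed under alternatives, 37 stayed within 1.5 times the count given (for medians, within a 95% interval of the median). The other 17 follow, in the order stage 5 mof RNAi, stage 15, stage 5 control. With windows of 1 kb, 4, 8 and 7 Cpr genes were at a boundary, beside 17.2%, 21.0% and 18.5% of all genes. With windows of 5 kb the stage 15 count was 24 (34.3%, beside 48.4%). With the 50% of boundaries that have the most negative scores, 4, 5 and 5 Cpr genes were at a boundary (beside 19.2%, 21.3% and 20.7%), the median distance was 31.0, 26.4 and 25.1 kb (beside 16.3, 14.4 and 14.3 kb), and the couples separated were 1 at stage 15 and 0 in control. With each cluster counted once, the median distance was 8.37 kb in both stage 5 lists. With 5 kb of tolerance in the second list, 1 Cpr gene (Cpr11A) had a control boundary and none after mof RNAi, and 3 had a control boundary and none at stage 15. With ends in the same bin only, 1 cluster had both its control ends at stage 15. The 37 include clusters in 1 domain, although the 50% of boundaries with the most negative scores changed them at 2 stages. Their number went from 7 to 9 of 10 at stage 15 and from 9 to 10 in control. The 37 also include the numbers at a boundary with each cluster counted once, 10, 10 and 11. Those are of 35 loci and not of 70 genes, so the shares did move. They were 28.6%, 28.6% and 31.4%, beside 14.3%, 18.6% and 17.1% by gene and 29.5%, 34.5% and 31.6% of all genes. Counting each cluster once for the number of genes at a boundary, and leaving out clusters in domains with left-out bins, were chosen after seeing the data. Leaving out domains with left-out bins was run for the stage 5 lists alone, since the stage 15 names do not show such bins. The cause of each change was not tested. Unknown depth and bins of 2.5 kb limit how finely a boundary can be placed.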

Other observations

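Cpr genes are short, with a median length of 1094 bp beside 2151 bp for all protein-coding genes, and a split by length was made after seeing the data. Among genes of up to 1 kb, 3 of 33 Cpr genes were at a boundary at stage 5 after mof RNAi, 4 at stage 15 and 5 in control (9.09%, 12.1% and 15.2%), beside 17.5%, 20.1% and 18.7% of all genes of that length. Among genes of 1 to 2.5 kb, 5 of 22 were in each list (22.7%), beside 25.7%, 31.0% and 27.8%. Among longer genes 2, 4 and 2 of 15 were (13.3%, 26.7% and 13.3%), beside 38.0%, 43.8% and 40.4%. The Wilson intervals of the Cpr genes include the share of all genes of that length in both shorter classes and, at stage 15, in the long class. In the long class the upper limit was 37.9% in both stage 5 lists.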
